A study of Mus musculus with 6 samples.

Results

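The translation initiation and elongation factors were examined as a set of 57 genes, of 19938 genes tested, in starry-sky tumor-associated macrophages (SS-TAMs) and in germinal center macrophages (GCMs). The set holds the genes whose probe set is annotated to a single gene with a symbol beginning Eif1 to Eif6, Eef1 or Eef2, without the kinases Eif2ak1 to Eif2ak4, and the probe set with the highest mean log2 intensity over the 6 arrays stood for its gene. Not all of them are factors in the strict sense, since the symbols also take in binding proteins of eIF4E, a kinase and methyltransferases that act on elongation factors, and Eef1e1, which is better known as a scaffold protein of the aminoacyl-tRNA synthetase complex. Eif1, Eif2s1, Eif3g, Eif4g1 and Eef1g were not analysed here.

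SS-TAMs came from tumors that BL2 cells, an established line of human Burkitt's lymphoma, formed under the skin of 3 female BALB/c SCID mice, taken when the tumor measured 1.44 cm2. GCMs came from the germinal centers of 3 female BALB/c mice carrying the CSF1R EGFP transgene, a reporter of macrophage-lineage cells, after 2 doses of sheep red blood cells. All mice were 6 to 12 weeks old, and 1000 cells per mouse were cut from frozen 10 µm sections by laser, the SS-TAMs by their stain for CD68, and amplified for 1 Mouse Gene 1.0 array each. Groups thus differed in strain, transgene, tissue and stimulus together, SCID hosts lack mature T and B cells, and the labels name the GCM tissue as spleen in one field and as lymph node in another.

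Translation begins when eIF2 brings the initiator tRNA to the small ribosomal subunit, where eIF1, eIF1A, eIF5 and the many-subunit eIF3 help to find the start codon. The cap-binding protein eIF4E, the scaffold eIF4G and the helicase eIF4A recruit the mRNA, and the eIF4E binding proteins block this step until mTORC1 phosphorylates them. eEF1A then delivers each aminoacyl-tRNA, eEF1B recharges eEF1A with GTP, eEF2 moves the ribosome on, and many of these factors are made from mRNAs with a 5 prime terminal oligopyrimidine (TOP) tract, the same element that couples ribosomal protein mRNAs to mTORC1.

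Of the 57 genes, 13 were lower and 4 were higher in SS-TAMs at a limma adjusted p under 0.05, and 40 did not pass the test. Among all genes, 4.74% were lower and 5.16% higher. The arrays of the groups did not overlap in 22 genes that lay lower in SS-TAMs and in 9 that lay higher, against 11.5% and 18.5% of all genes. With a difference of at least 2-fold as well, 7 were lower and 3 higher, against 2.36% and 1.40% of all genes. All 17 calls were among the 50 members at or above the median level of all genes, where 8.81% of genes were lower and 7.67% higher. The median log2 difference (SS-TAM minus GCM) of the set was -0.14, and that of all genes was 0.04, and after quantile normalization these were -0.03 and 0. The share of lower calls rose with the level. Of 343 genes with a geometric mean intensity of at least 100, 43.1% were lower, and the 9 translation factor genes among them held 4 lower calls, a share close to that background. That background includes many ribosomal protein genes, described below. Eif2s2 and Eif3m, among the 9 and not called, each have a far dimmer further probe set, also described below. It averaged 21 and 19.3 in SS-TAMs and 44.5 and 25.2 in GCMs. Quantile normalization of the arrays changed the split from 4 higher and 13 lower to 6 higher and 10 lower.

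Markers of other cell types differed with the groups. Of 19 core macrophage markers 13 were higher in SS-TAMs and none was lower, with summed intensities of 3000 to 4010 in SS-TAMs and 1210 to 1360 in GCMs. T cell markers, 6 of 11 of which were lower, summed to 191 to 303 in SS-TAMs against 1190 to 1610 in GCMs. No marker was listed at 0, but the T cell receptor component Cd3g read 6.2 to 6.5 in SS-TAMs, which is about the median intensity of an array, and 276.2 to 411.1 in GCMs. B cell markers were lower in SS-TAMs for 2 of 11 genes (sums of 114 to 138 against 178 to 459), plasma cell markers for 1 of 6 with 1 of 6 higher, and fibroblast markers were higher for 3 of 9 (590 to 1130 against 206 to 279). None of 10 germinal center and cycling cell markers and none of 4 erythroid markers passed the limma test (1 each at an unadjusted p under 0.05). The germinal center and cycling cell markers summed to 102 to 129 in SS-TAMs and 124 to 340 in GCMs. GCM replicate 1 stood apart for some, such as Rgs13 (100.6, others 16.2) and Mki67 (45.4, others 10.3 and 12.1). S1pr2 hardly varied among GCM arrays (12.7, 12.4 and 12.3). The part of these cells in the values below was not tested, and in such bulk samples fewer cells of a type and less RNA per cell cannot be told apart.

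**Figure D1:**
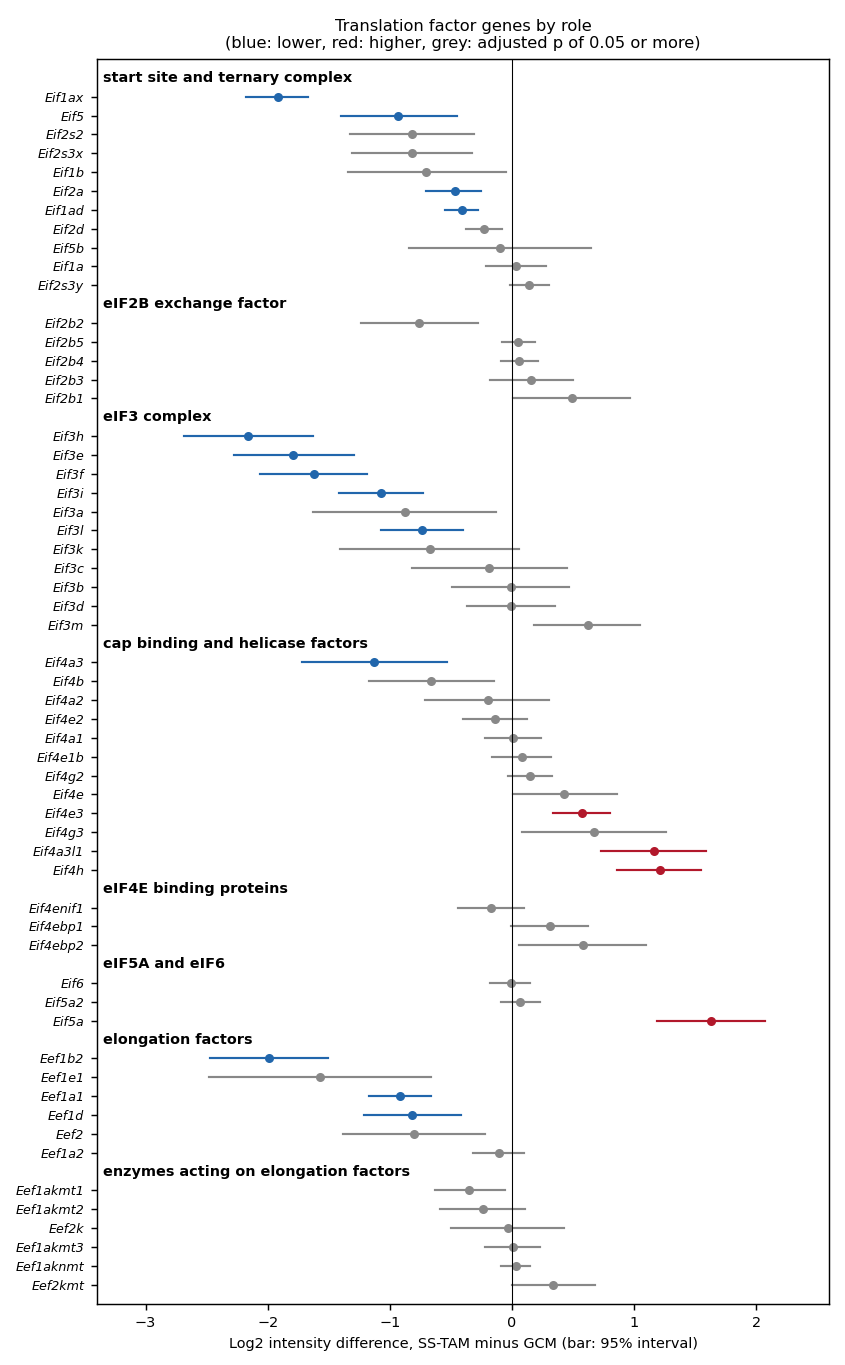
Log2 intensity difference (SS-TAM minus GCM, x axis) of all 57 genes by role, with 1 point a gene and its 95% interval as a bar, blue for lower and red for higher at a limma adjusted p under 0.05 and grey for the rest. The lower calls sit among the start site factors (4), eIF3 (5), the elongation factors (3, of which Eef1a1 turns to 0.07 under quantile normalization) and 1 helicase, and 3 of the 4 higher calls sit among the cap binding and helicase factors. Scaling to core macrophage markers shifts all genes alike, to a median of -1.85. It turns all 4 below zero and leaves them 0.53 to 1.59 above that median by construction, which says nothing of the single genes.

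Among the start site and ternary complex factors, 4 of 11 genes were lower in SS-TAMs and none was higher. The share of lower calls among genes at or above the median level was 8.81%. Eif1ax, which encodes the eIF1A that opens the small subunit for scanning, read 44.4, 46.1 and 53.5 in SS-TAMs and 195.9, 186 and 163.5 in GCMs. The SS-TAM values lay close together and far below every GCM value, a 3.79-fold lower level (log2 -1.92 ± 0.10 SE, n = 3 and 3, limma adjusted p = 0.00093), the smallest adjusted p of the set. Eif5, whose product triggers GTP hydrolysis by eIF2 at the start codon, read 54.9, 51.2 and 81 against 102.7, 129.7 and 117. The groups did not overlap, though SS-TAM replicate 3 stood well above the others of its group, and the 1.9-fold lower level (limma adjusted p = 0.038) lost its call when any array but SS-TAM replicate 3 was left out (highest adjusted p = 0.15). The Eif5 call was also lost after quantile normalization (log2 -0.45, limma adjusted p = 0.18) and with an offset of 16, array weights or the replicate block (0.057, 0.056 and 0.066 as adjusted p). Eif2a, a factor that can bring tRNA to the ribosome without eIF2, was lower by a log2 difference of -0.47 (limma adjusted p = 0.030), and Eif1ad, named for its eIF1A-like domain, by -0.41 (adjusted p = 0.010). Leaving out single arrays ended the Eif2a call in 5 of 6 cases (highest limma adjusted p = 0.12) and the Eif1ad call in 3 of 6, for each GCM array (highest adjusted p = 0.052).

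On the probe sets used here, the measured subunits of eIF2 itself did not pass the test. Eif2s3x, the brightest gene of the group and the X-linked copy of the gamma subunit, read 79.8, 75.6 and 93.9 in SS-TAMs and 108.4, 161.2 and 177.4 in GCMs. The groups did not overlap (log2 -0.82, limma adjusted p = 0.061). Its Y-linked copy Eif2s3y read 3.4 to 4 on every array, below the array medians, and all mice were female. Eif2s2, the beta subunit, read 61.1, 69.8 and 103.7 against 139.8, 145.6 and 119.6 on its brightest probe set (log2 -0.82, limma adjusted p = 0.065). A further probe set of Eif2s2 was lower (log2 -1.09, limma adjusted p = 0.038), as described below. Median centring made Eif2s3x and Eif2s2 lower calls (limma adjusted p = 0.038 and 0.041). After quantile normalization their log2 differences were -0.18 and -0.22 (limma adjusted p = 0.58 and 0.55).

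None of the 5 genes of eIF2B, which recharges eIF2 with GTP and is the target of the integrated stress response, passed the limma test, and 2 had an unadjusted p under 0.05. Their levels were low in both groups, and the median log2 difference was 0.06. Eif2b1, the brightest, averaged 11.1 ± 2.90 (SD, n = 3) in SS-TAMs and 7.77 ± 0.981 (n = 3) in GCMs (log2 0.49, limma adjusted p = 0.19). Eif2b2 showed the opposite sign, with 5.3, 6.8 and 9.2 against 11.8, 12.1 and 11.3 (log2 -0.76, limma adjusted p = 0.069).

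Of the eIF3 complex, the scaffold on the small subunit, 5 of 11 measured subunits were lower and none was higher. Among genes at or above the median level, 8.81% were lower. By count this was the most of any role group, but the elongation factors had a larger share, with 3 of 6 lower. The median log2 difference of eIF3 was -0.74, and -0.32 under quantile normalization, where 4 were lower and Eif3m was higher. Eif3h had the largest lower difference of all 57 genes. It read 90.1, 76.2 and 136.2 in SS-TAMs and 408.4, 465.2 and 437.8 in GCMs, so that the highest SS-TAM array was still far below the lowest GCM array. The difference was 4.46-fold (log2 -2.16 ± 0.21 SE, limma adjusted p = 0.0042), or -1.21 on the log2 scale after quantile normalization (adjusted p = 0.012). Eif3e, a subunit that is also known as the viral integration site Int6, read 68.6, 42.7 and 54.6 against 181.2, 223.3 and 162.3, a 3.45-fold lower level (log2 -1.79 ± 0.20 SE, limma adjusted p = 0.0064). Eif3f read 31, 24 and 30.3 against 107.5, 71.2 and 86.1, a 3.08-fold lower level (log2 -1.62 ± 0.18 SE, limma adjusted p = 0.0058). These 3 subunits kept their calls whichever array was left out.

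Eif3i, a ring-shaped subunit at the edge of the complex, read 38.6, 27.6 and 37.4 in SS-TAMs and 68.3, 75.2 and 72.4 in GCMs. Here the groups were again separate, at a 2.11-fold lower level (log2 -1.07 ± 0.14 SE, limma adjusted p = 0.0093), and the call was lost without GCM replicate 2 or 3 (highest adjusted p = 0.055). Eif3l averaged 35.9 ± 5.55 (SD, n = 3) against 59.4 ± 6.07 (n = 3), at a log2 difference of -0.74 (limma adjusted p = 0.028), and was called without SS-TAM replicate 3 but not without any other array (highest adjusted p = 0.11), nor after quantile normalization (adjusted p = 0.059). Subunits of the same complex differed widely in the size of the change, although 10 of 11 had a negative sign. Eif3a, the largest subunit, overlapped between groups (log2 -0.88, limma adjusted p = 0.14), and Eif3b, Eif3c and Eif3d had log2 differences of -0.01, -0.19 and -0.01 (Eif3c and Eif3d 0.28 and 0.19 after quantile normalization). Eif3m, the brightest subunit on the probe set used here, read 351.7, 400.5 and 493 in SS-TAMs and 236.3, 246 and 330 in GCMs. The SS-TAM arrays lay above every GCM array without passing the test (log2 0.62, limma adjusted p = 0.091). A further probe set of the gene was far dimmer, at 13 to 28.6 in SS-TAMs and 22 to 29.1 in GCMs. It went the other way (-0.46), as described below.

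Of the cap binding and helicase factors, 3 of 12 were higher and 1 was lower. For all genes at or above the median level these shares were 7.67% and 8.81%. Eif4h, a cofactor that stimulates the eIF4A helicase, read 37.7, 32.5 and 44.1 in SS-TAMs and 18.7, 15 and 15.7 in GCMs. The groups did not overlap, at a 2.31-fold higher level (log2 1.21 ± 0.14 SE, limma adjusted p = 0.0068), a sign that turned to -0.68 when arrays were scaled to core macrophage markers. That scaling shifts all genes alike, here to a median of -1.85. Both the turn of sign and the 1.16 of Eif4h relative to that median follow by construction. Eif4e3, a cap-binding relative of eIF4E, averaged 33.9 ± 3.09 (SD, n = 3) against 22.9 ± 1.82 (n = 3), a 1.48-fold higher level (limma adjusted p = 0.019). The call was lost without GCM replicate 1 or 3 (highest adjusted p = 0.081). Under the same scaling the log2 difference was -1.32, or 0.53 relative to the median, again by construction.

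The helicase paralogues Eif4a3 and Eif4a3l1 went opposite ways. Eif4a3, a core component of the exon junction complex, read 26.5, 23.6 and 28.1 in SS-TAMs and 79.9, 40.7 and 56.1 in GCMs, where the GCM arrays spread widely. The 2.18-fold lower level (log2 -1.13 ± 0.24 SE, limma adjusted p = 0.042) kept its call without GCM replicate 2 but not without any other array (highest adjusted p = 0.14). Eif4a3l1, a close copy of Eif4a3, read 12.3, 14.9 and 9.6 against 4.9, 6.1 and 5.3. Its GCM values were at or under the array medians. The 2.23-fold higher level (limma adjusted p = 0.015) would understate the difference if those values are background, which was not tested. The Eif4a3l1 call was lost without SS-TAM replicate 1 or any GCM array (highest adjusted p = 0.070). Scaled to core macrophage markers, its log2 difference was -0.73 (1.12 relative to the median), by construction of that shift. The copies are so alike that 2 further probe sets are annotated to both, with log2 differences of -0.37 and -0.61, and the split between them is therefore uncertain.

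Other members of the cap complex did not pass the test. Eif4a1 and Eif4a2, the general helicases of scanning, had log2 differences of 0.01 (limma adjusted p = 0.96) and -0.20 (adjusted p = 0.56, and 0.15 after quantile normalization). Eif4g2, a scaffold for cap-independent initiation and the brightest gene of this group, read 198.9, 188.8 and 222.5 in SS-TAMs and 183.4, 183.1 and 183.4 in GCMs. The difference was log2 0.15 (limma adjusted p = 0.27), but after quantile normalization it was 1.13 (adjusted p = 0.00049), a step that also moved the bright Eif3m to 1.64 and Eef1a1 to 0.07. Eif4e, the cap-binding protein, averaged 101 ± 23.9 (SD, n = 3) against 73.5 ± 6.86 (n = 3), with a log2 difference of 0.43 (limma adjusted p = 0.19).

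The proteins that bind and restrain eIF4E did not pass the limma test either, at 0 of 3 genes (1 at an unadjusted p under 0.05). Eif4ebp2 read 20, 21.5 and 17.4 in SS-TAMs and 13.6, 9.7 and 16.9 in GCMs, separate between groups but close at the nearest arrays (log2 0.58, limma adjusted p = 0.16). Eif4ebp1 averaged 7.83 ± 1.17 (SD, n = 3) against 6.30 ± 0.436 (n = 3), both near the array medians (log2 0.31, limma adjusted p = 0.20).

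Eif5a, whose hypusine-bearing product eases peptide bonds at hard-to-join residues, had the largest higher difference of the 57 genes on its brightest probe set. It read 83.5, 69.4 and 105.6 in SS-TAMs and 30.8, 28.5 and 23.4 in GCMs, a 3.1-fold higher level (log2 1.63 ± 0.18 SE, limma adjusted p = 0.0059). Scaled to core macrophage markers, the log2 difference was -0.25, or 1.59 relative to the median of all genes there. Both values follow by construction from a shift of all genes. A further probe set of the same gene did not show the higher level, as described below. Its paralogue Eif5a2 averaged 4.93 ± 0.321 (SD, n = 3) against 4.70 ± 0.100 (n = 3), under the array medians. Eif6, which keeps the large subunit apart until it is mature, averaged 12.9 ± 0.872 and 13.0 ± 0.265 (SD, n = 3 each), with a log2 difference of -0.01 (95% interval -0.18 to 0.15).

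Of the 6 elongation factor genes, 3 were lower in SS-TAMs, and all 6 had a negative sign (median log2 -0.87, and -0.35 under quantile normalization, where Eef1b2 was lower, Eef1a1 turned to 0.07 and Eef2 to 0.17). Of all genes at or above the median level 8.81% were lower. Eef1a1, Eef1b2 and Eef2 have a geometric mean intensity of at least 100, where 43.1% of genes were lower. Eef1b2, the exchange subunit that recharges eEF1A, read 106.5, 91 and 114.5 in SS-TAMs and 314.3, 517.3 and 427.7 in GCMs. The groups lay far apart, at a 3.97-fold lower level (log2 -1.99 ± 0.20 SE, limma adjusted p = 0.0041), or -1.02 on the log2 scale after quantile normalization (adjusted p = 0.014). Eef1a1, the delivery factor and the brightest of the 57 genes, read 454.6, 501.7 and 470.5 against 805.2, 871.8 and 1027.1. The groups were separate at a 1.89-fold lower level (log2 -0.92 ± 0.10 SE, limma adjusted p = 0.0063), but quantile normalization turned the sign to 0.07 (adjusted p = 0.81), and a probe set annotated to Eef1a1 together with 2 other genes read 1070 in SS-TAMs and 1150 in GCMs (log2 -0.11). Eef1d, a further exchange subunit, averaged 38.5 ± 8.46 (SD, n = 3) against 66.8 ± 4.80 (n = 3), at a log2 difference of -0.82 (limma adjusted p = 0.033), and was not called after quantile normalization or, on leaving out 1 array, in 5 of 6 cases (highest adjusted p = 0.13).

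Eef2, the translocase, read 184.3, 111.6 and 137.4 in SS-TAMs and 245.8, 196.3 and 308 in GCMs. The groups were separate but the gene did not pass the test (log2 -0.80, limma adjusted p = 0.099), and quantile normalization turned the sign to 0.17 (adjusted p = 0.74). Eef1e1, the synthetase scaffold, read 14.9, 8.8 and 19.2 against 31.1, 60.9 and 34.8, also separate (log2 -1.57, limma adjusted p = 0.054). Eef1a2, the muscle and neuron form of eEF1A, averaged 11.0 ± 0.902 and 11.9 ± 0.764 (SD, n = 3 each), at low levels in both groups (log2 -0.11, 95% interval -0.32 to 0.10). Whether it differed from its widely expressed paralogue Eef1a1 was not tested.

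No enzyme acting on elongation factors passed the limma test, at 0 of 6 (1 at an unadjusted p under 0.05). Eef2k, the kinase that halts eEF2, averaged 8.13 ± 1.87 and 8.20 ± 0.854 (SD, n = 3 each), with a log2 difference of -0.03 (95% interval -0.50 to 0.43). Eef2kmt, the brightest, and Eef1akmt1, with the largest difference, are methyltransferases of eEF2 and eEF1A, and had log2 differences of 0.34 (limma adjusted p = 0.20) and -0.35 (adjusted p = 0.13).

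**Figure D2:**
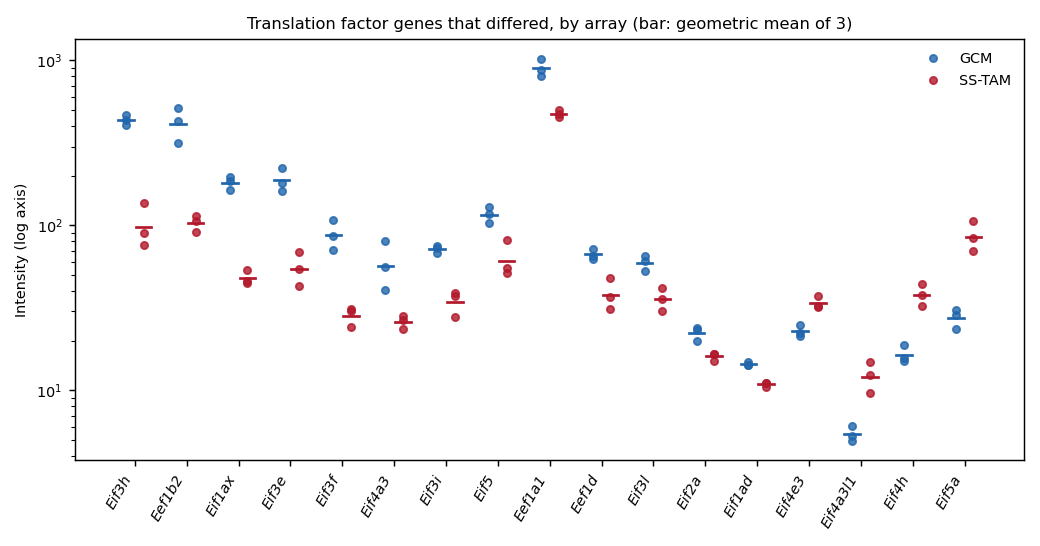
Intensity (y axis, log) of the 17 genes that passed the test on each array, with 1 point an array, blue for GCM and red for SS-TAM, and a bar at the geometric mean of 3. The groups do not overlap in any of the 17, and Eif3h and Eef1b2 have the largest lower differences of the geometric means. The brightest, Eef1a1, is lower as deposited but at log2 0.07 after quantile normalization. Scaled to core macrophage markers, the 4 higher genes on the right turn below zero and stand 0.53 to 1.59 above the median of all genes. Both follow by construction from a shift of all genes.

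Of the 13 lower calls, 6 were of factors known for TOP mRNAs. The 8 measured genes of that list are Eef1a1, Eef1b2, Eef1d, Eef2, Eif3e, Eif3f, Eif3h and Eif4b. In SS-TAMs 6 were lower, Eef2 (above) and Eif4b (log2 -0.66, limma adjusted p = 0.11) not passing the test. In all 8 (median log2 -1.27) the SS-TAM arrays lay below the GCM arrays without overlap, against 11.5% of all genes. Their summed intensity was 937 to 1070 in SS-TAMs and 2250 to 2600 in GCMs, whereas the sum over the other 49 genes was 1860 to 2230 and 2220 to 2380. The latter sum includes the brightest probe set of Eif3m, at 351.7 to 493 in SS-TAMs and 236.3 to 330 in GCMs. The probe set of Eif3m numbered among its chromosome's genes read only 13 to 28.6 and 22 to 29.1. Of those 49 genes 7 were lower and 4 higher, with a median of -0.01. After quantile normalization 4 of the 8 were still lower, with a median of -0.78. The list also holds many of the brightest factors, for which the background of lower calls is the 43.1% given above. All 7 members below the median level of all genes are among the other 49. The split by this list was added after values were seen.

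Ribosomal proteins, the main products of TOP mRNAs, showed the same sign. Of 61 measured genes 48 were lower in SS-TAMs and 1 was higher, with a median log2 difference of -1.72. Among all genes 4.74% were lower and 5.16% higher. Many of the 61 are bright, and 43.1% of genes with a geometric mean intensity of at least 100 were lower. The largest lower differences were those of Rps13 (-3.24), Rplp0 (-3.05), Rpl26 (-2.88) and Rpsa (-2.84), each at a limma adjusted p of 0.0015 or less. Their probe sets were also the brightest of each gene. The check of probe set numbering described below is given gene by gene for the members only. Which transcripts these probe sets measure was not tested. Rpl41 was the exception, at 814 ± 8.19 (SD, n = 3) against 605 ± 8.28 (n = 3). After quantile normalization 33 were lower and 3 higher, with a median of -0.79. Of 8 other genes known for TOP mRNAs 4 were lower, namely Npm1 (-2.18), Naca (-1.59), Tpt1 (-1.43) and Fau (-1.25), while the poly(A)-binding protein gene Pabpc1 was level at 360 and 366. The median of these 8 genes was -1.06, and after quantile normalization it was -0.27, with 3 lower and 1 higher.

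Because the element lies at the mRNA's first bases, RefSeq start sites (GRCm38.p6, sense strand, 30 bases before to 20 bases from the annotated start) were read for the 44 members that have one. The windows below compare lower factors with and without a long tract with the higher factor Eif4h, and capitals mark the longest run of C or T found within 20 bases of the start.
Eef1a1, chr9:78481705-78481754, minus strand: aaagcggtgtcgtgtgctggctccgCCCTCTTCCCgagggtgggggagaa
Eif3f, chr7:108934385-108934434, plus strand: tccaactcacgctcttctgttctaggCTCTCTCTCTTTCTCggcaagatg
Eif3l, chr15:79075193-79075242, plus strand: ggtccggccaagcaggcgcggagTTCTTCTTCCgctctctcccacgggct
Eef1b2, chr1:63176801-63176850, plus strand: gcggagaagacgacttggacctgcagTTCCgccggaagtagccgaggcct
Eif1ax, chrX:159372148-159372197, plus strand: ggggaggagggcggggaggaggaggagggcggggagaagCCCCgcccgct
Eif4h, chr5:134639390-134639439, minus strand: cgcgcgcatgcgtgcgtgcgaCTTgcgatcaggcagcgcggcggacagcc
Eif3f has a run of 15, and Eef1a1 and Eif3l have runs of 10. A run of at least 8 was present in 12 of the 44 members (27.3%), in 18.4% of all 27025 genes with a start and in 46.3% of 67 ribosomal protein genes. By outcome it was found in 3 of 9 lower factors with a start, 0 of 3 higher ones and 9 of 32 that did not pass the test. Eif1ax and Eef1b2, among the most strongly lower, have runs of only 4. This run length was chosen after the windows had been seen. The stricter motif tried before it, a C at the start followed by 4 bases that are C or T, was present in 2 of the 44 members (4.55%), 3.01% of all genes and 22.4% of ribosomal protein genes. Runs that reach the edge of the search are cut there, as with Eef2 (6) and Eif3k (7), and a gene with several starts took its longest run. Of the TOP list, Eif3e, Eif3h and Eef1d had no start, and Eef1b2, Eef2 and Eif4b had runs of 4, 6 and 7. Whether the annotated starts are those used in these cells was not tested.

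**Figure D3:**
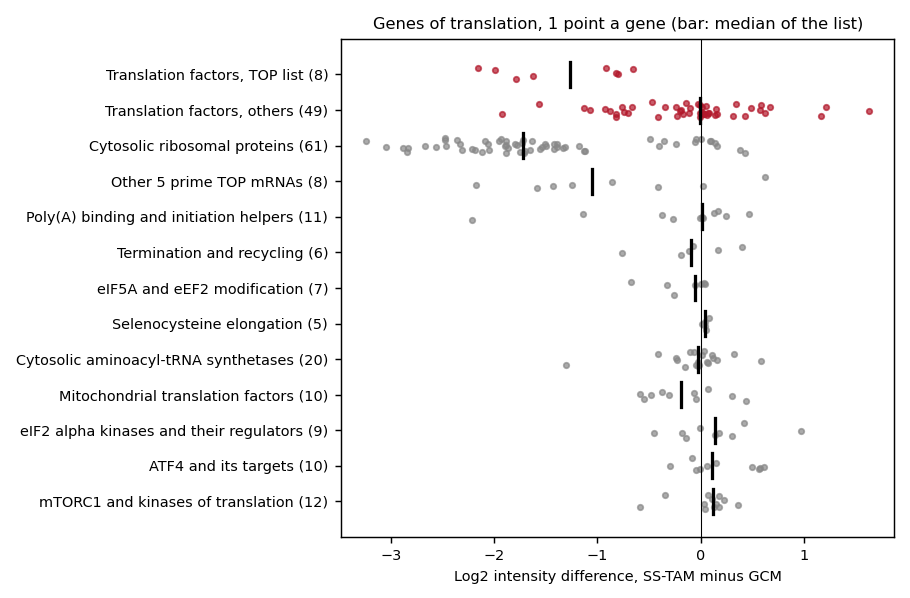
Log2 intensity difference (SS-TAM minus GCM, x axis) of the genes of translation by list, with 1 point a gene, the number of genes in brackets and a bar at each list's median, the translation factors in red. The 8 factors of the TOP list (median -1.27) and the 61 ribosomal protein genes (median -1.72) lie mostly below zero, while the other 49 factors center on -0.01 as deposited. Those 49 include all 7 members below the median level of all genes. Under quantile normalization the medians are -0.78 for the TOP list and -0.79 for ribosomal proteins, and Eef1a1 and Eef2, both in the TOP list, turn to 0.07 and 0.17.

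Genes of the pathways that govern the factors were called in both directions, and their counts are to be read against the 5.16% of all genes that were higher and the 4.74% that were lower. Of 12 genes of mTORC1 and the kinases of translation none passed the limma test (3 at an unadjusted p under 0.05), the brightest being Rps6ka3 (log2 -0.59, limma adjusted p = 0.053) and the mTORC1 activator Rheb (-0.35, adjusted p = 0.49). Among 9 kinases of eIF2 alpha and their regulators, Impact, an inhibitor of the kinase GCN2, was higher (log2 0.97, limma adjusted p = 0.024) and Nck1 lower (-0.45, adjusted p = 0.043). Of 10 genes of ATF4 and its targets, Chac1 alone was called, higher by log2 0.56 (limma adjusted p = 0.020). Chac1 read 6.9 to 8.5 in SS-TAMs and 4.9 to 5.2 in GCMs, the latter below the array medians. Whether those GCM values are background was not tested. Pdcd4, which binds eIF4A and holds back its helicase, was the only call among 11 poly(A) binding and helper genes. It read 26.1, 22.3 and 23.1 in SS-TAMs and 104.5, 118.2 and 107.2 in GCMs, a log2 difference of -2.21 (limma adjusted p = 0.00038).

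Genes of other steps of protein synthesis are to be read against the same shares. Etf1, the release factor, was higher by 0.40 (limma adjusted p = 0.047), 1 of 6 genes of termination and recycling, and Dph3, needed for the diphthamide of eEF2, was lower (-0.68, adjusted p = 0.029), 1 of 7 genes that modify eIF5A and eEF2. Of 20 aminoacyl-tRNA synthetase genes, Aimp1 (-1.30, limma adjusted p = 0.0092) and Hars (-0.41, adjusted p = 0.012) were lower. Cars was higher (0.32, limma adjusted p = 0.048), with GCM values of 5.2 to 5.3 below the array medians. None of 5 genes of selenocysteine elongation passed the limma test, nor had any an unadjusted p under 0.05, with Sephs2 and Eefsec at log2 differences of 0.04 and 0.01. No mitochondrial translation factor of 10 passed it either, although 5 had an unadjusted p under 0.05, with Mtif2 and Gfm1, the brightest, at -0.55 and -0.38.

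For 5 members, the outcome depended on the probe set. Probe sets of this array are numbered mostly in genome order, and 97% of all probe sets with a single gene had at least 25% of their 20 nearest neighbors by number on that gene's own chromosome. This held for 59 of the 67 probe sets of the members, and 8 had 0 of 20. The brightest probe sets of Eif2s2, Eif3m, Eif4a1, Eif4e and Eif5a were among those 8, and each gene has a dimmer probe set numbered among its chromosome's genes. For Eif5a that probe set read 47.8, 32.6 and 34.1 in SS-TAMs and 33, 31.1 and 30.3 in GCMs, so that the groups overlapped and the higher call was lost (log2 0.26, limma adjusted p = 0.34). For Eif2s2 it read 21.6, 25.8 and 15.6 against 45.6, 52.6 and 35.3, which made the gene a lower call (log2 -1.09, limma adjusted p = 0.038). For Eif3m the sign turned, to a log2 difference of -0.46 (limma adjusted p = 0.37), and Eif4a1 and Eif4e had differences of -0.14 (adjusted p = 0.36) and -0.06 (adjusted p = 0.90). With these probe sets 3 genes were higher and 14 lower. Which transcript each probe set measures was not tested.

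**Figure D4:**
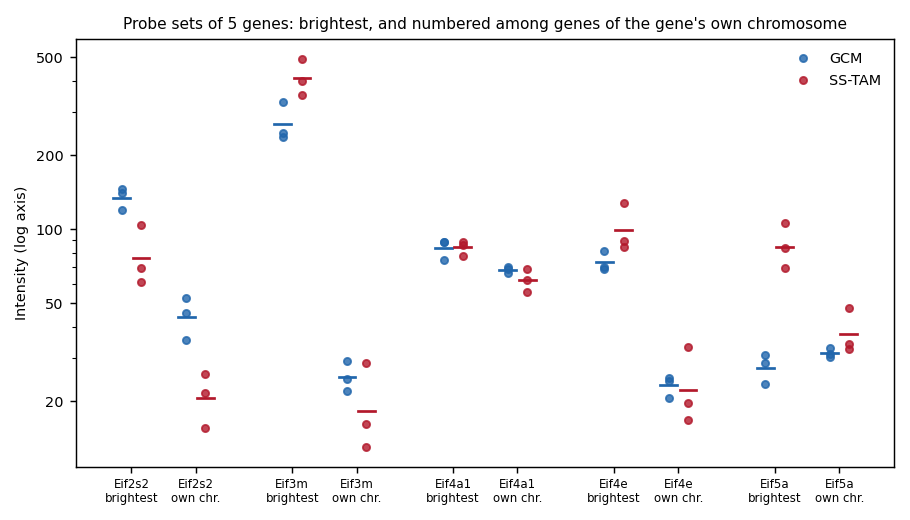
Intensity (y axis, log) on each array of the 5 genes whose brightest probe set is numbered away from the gene's own chromosome, beside the probe set numbered among genes of that chromosome (own chr.), with 1 point an array, blue for GCM, red for SS-TAM and a bar at the geometric mean of 3. The SS-TAM arrays of Eif5a stand clear of GCM on the brightest probe set (69.4 to 105.6 against 23.4 to 30.8) but overlap on the other (32.6 to 47.8 against 30.3 to 33), while Eif2s2 is separate on both. Scaling to core macrophage markers, a shift of all genes, puts the first Eif5a difference at -0.25 by construction.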

How the data were processed

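RNA of 3 SS-TAM and 3 GCM captures was measured on 6 arrays, 1 per animal. The authors deposited linear intensities, rounded to 1 decimal, for 28944 probe sets. The submitters' processing notes name RMA (background correction, normalization and summary of probes) and limma, with versions not given in the sources used here. Array medians were 6.3, 6.4 and 6.5 in SS-TAMs and 6.1, 6.1 and 6.2 in GCMs, while 99th percentiles were 241 to 284 and 614 to 664, so how the arrays were scaled to each other is unknown. No detection calls were used. A mouse array cannot set aside human transcripts captured with the cells.

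Probe sets naming 1 gene were kept (21789, of which 21698 matched RefSeq by gene ID). Those naming several (1621) or unnamed here (5534) were left out. No source used here gives the annotation's build, so probe sets carry no coordinates. Log2 intensities were fitted with lmFit and eBayes (limma 3.58.1, R 4.3.3, two-sided, no covariate) after a check on simulated data. P-values were adjusted by Benjamini-Hochberg over all 19938 genes, and 0.05 was the threshold. A fold is the ratio of the groups' geometric means. With 3 arrays a group, an exact permutation test of a single gene cannot go below p = 0.1.

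The members and lists were chosen with earlier results of these data known. Named were every called member (the 12 largest changes with all arrays), the brightest and most changed gene of each role, set paralogue pairs and regulators, and up to 4 called genes of each other list, or its 2 brightest. Several choices were made after values were seen. The brightest probe set was first taken by the linear mean (1027 higher and 950 lower over all genes) and then by the mean log2 (1028 and 946), because this gave the counts of an earlier description; the members' counts were equal. The neighbor share was loosened from over 50% to at least 25%, with the same counts of member calls. S6 kinases, pseudogenes and binding proteins caught by the ribosomal protein symbols were removed. The intensity minimum of 100, the split by TOP list and the start site motifs were added.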

Additional observations from a re-analysis of the deposited data

How the results depend on the processing

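Of the 17 calls, 2 higher (Eif4h and Eif5a) and 6 lower ones (Eif3h, Eef1b2, Eif1ax, Eif3e, Eif3f and Eef1a1) passed without any 1 array, though Eif5a did not on its other probe set and Eef1a1 not after quantile normalization (0.07). Leaving out 1 array gave 2 to 5 higher and 7 to 14 lower calls, and medians of -0.21 to -0.07, and quantile normalization a median of -0.03 (all genes 0). By array, without SS-TAM replicates 1 or 2 there were 8 lower, without GCM replicate 1 there were 2 higher and 8 lower, without GCM replicate 2 there were 7 lower, and without GCM replicate 3 there were 2 higher and 7 lower. Requiring at least 2-fold as well left 3 higher and 7 lower. Scaling to core macrophage markers, themselves higher in SS-TAMs, moved the median of all genes to -1.85 and of the members to -2.03, with 0 higher and 56 lower. Relative to that median, the values only restate the unscaled differences less the unscaled median of all genes. By construction this shift alone takes below zero any gene with a smaller positive difference, and the values so reached say nothing of the single genes: Eif5a (-0.25), Eif4h (-0.68), Eif4a3l1 (-0.73), Eif4g3 (-1.22), Eif3m (-1.27), Eif4ebp2 (-1.30), Eif4e3 (-1.32), Eif2b1 (-1.40), Eif4e (-1.45), Eef2kmt (-1.55), Eif4ebp1 (-1.58), Eif2b3 (-1.73), Eif2s3y and Eif4g2 (both -1.74), Eif4e1b (-1.81), Eif5a2 (-1.82), Eif2b4 and Eif2b5 (both -1.83), Eif1a and Eef1aknmt (both -1.85), and Eef1akmt3 and Eif4a1 (both -1.88). Counts stayed within 4 to 6 higher and 10 to 18 lower under quantile normalization, median centring, an offset of 16, removal of dim genes, other ways to combine probe sets, trended and robust variances, array weights and the linear mean. With the replicate number as a block 5 were higher and 12 lower (1319 genes in all against 1974). Same-numbered arrays correlated at 0.09, 0.09 and 0.02 in their deviations, each the best match of its array. Other pairs lay at -0.08 to 0.01. Values this near 0 cannot settle whether the arrays were paired, and the design gives no pairing. The number of arrays limits the precision.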
